A study of Mus musculus with 12 samples.

Results

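The genes described are Bdnf, the other hippocampal neurotrophin Ntf3, the receptors Ntrk2 (TrkB), Ntrk3 (TrkC) and Ngfr (p75), the sorting receptor Sort1 (sortilin) and the BDNF-induced secretory protein gene Vgf. They were picked by gene symbol for their place in neurotrophin signalling. All 7 were found among the 36119 genes of the deposited table, and 6 of the 7 were among the 14947 genes whose mean reached 1 and that entered the tests.

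Neurotrophins are secreted growth factors that are made as larger precursors and cut to a mature form by proteases. The mature forms bind Trk receptor kinases, BDNF mainly TrkB and neurotrophin-3 mainly TrkC, whereas the precursors bind p75 together with sortilin. In the hippocampus BDNF is released from excitatory neurons in response to activity, is needed for lasting changes in synaptic strength, and is among the genes most often studied after voluntary running and environmental enrichment.

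Hippocampal RNA was sequenced from 12 adult C57BL/6 mice at postnatal day 70, with 3 libraries in each of 4 groups. Ethanol mice had been injected under the skin as pups, on postnatal days 6 and 7, with ethanol at a dose of 2.5 g/kg, dissolved in saline (0.15 M), and again after 2 hours on each day; saline mice received the same volumes of saline. From postnatal day 21, enriched mice lived with littermates of their own sex in large cages with running wheels, ladders and toys, and the remaining mice stayed in standard cages. The groups were therefore enriched ethanol, standard ethanol, enriched saline and standard saline, and all 4 shared strain, age, injections and tissue. The labels file the ethanol under prenatal treatment although pups were injected after birth. They give neither the sex nor the litter nor the cage of a mouse. The p values therefore cover the variation among these libraries, which may be smaller than that between litters or cages.

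All values below are the authors' deposited values on the TPM scale (a relative abundance per transcript length, so that levels of different genes can be set side by side), and fold changes are on the log2(value + 0.5) scale, which understates the change of low genes. Read depth is unknown. The libraries held hippocampal neuron markers throughout: all 12 dentate granule cell markers, all 7 CA1 pyramidal markers and 8 of 10 CA2 and CA3 markers passed the expression minimum. Enriched saline replicate 2 stood apart in its choroid plexus markers, which summed to 7842 there and to between 51.9 and 456 in the other libraries, and standard saline replicate 2 had the highest sum of dentate granule cell markers, 564 against 322 to 413 in the others.

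None of the 6 tested genes passed an adjusted p of 0.05 in any of the 7 comparisons with limma (Benjamini-Hochberg adjustment over all genes tested, two-sided), so no member is called higher or lower here. The smallest unadjusted p values belonged to comparisons of housing. Ntf3 averaged 11.0 ± 0.437 in enriched ethanol mice and 7.21 ± 0.654 in standard ethanol mice, and Vgf averaged 137 ± 12.6 in enriched saline mice and 111 ± 5.74 in standard saline mice (SD, n = 3 each). Bdnf averaged 28.8 over the 6 enriched libraries and 24.6 over the 6 standard libraries. Ntrk2 reached 2.12 times its standard saline mean in the highest library, and its values followed those of neighbouring genes on chromosome 13.

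Calls were rare in the whole table. Ethanol in standard cages had 0 of 6 members called against 0.0134% of all genes tested, and ethanol in enriched cages had 0 of 6 against 0.00%. Enrichment in saline mice had 0 of 6 against 0.0268%, and enrichment in ethanol mice 0 of 6 against 0.00669%. Ethanol averaged over housing had 0 of 6 against 0.0134%, enrichment averaged over treatment 0 of 6 against 0.0201%, and the interaction of ethanol and enrichment 0 of 6 against 0.0134%. At an unadjusted limma p under 0.05 the members numbered 1 of 6 for ethanol in standard cages (7.39% of all genes), 1 for ethanol in enriched cages (7.76%), 2 for enrichment in saline mice (10.0%), 1 for enrichment in ethanol mice (5.57%), 0 for ethanol averaged over housing (8.02%), 3 for enrichment averaged over treatment (7.96%) and 2 for the interaction (7.41%). The 3 members in the averaged enrichment comparison were Bdnf, Ntf3 and Vgf, all higher in enriched mice on average. For Ntf3 the log2 fold change was 0.58 in ethanol mice and 0.00 in saline mice. The median log2 fold change of the 6 tested members was 0.21 for enrichment averaged over treatment, beside 0.00 for all genes. It was 0.03 for ethanol averaged over housing, beside 0.00 for all genes.

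**Figure D1:**
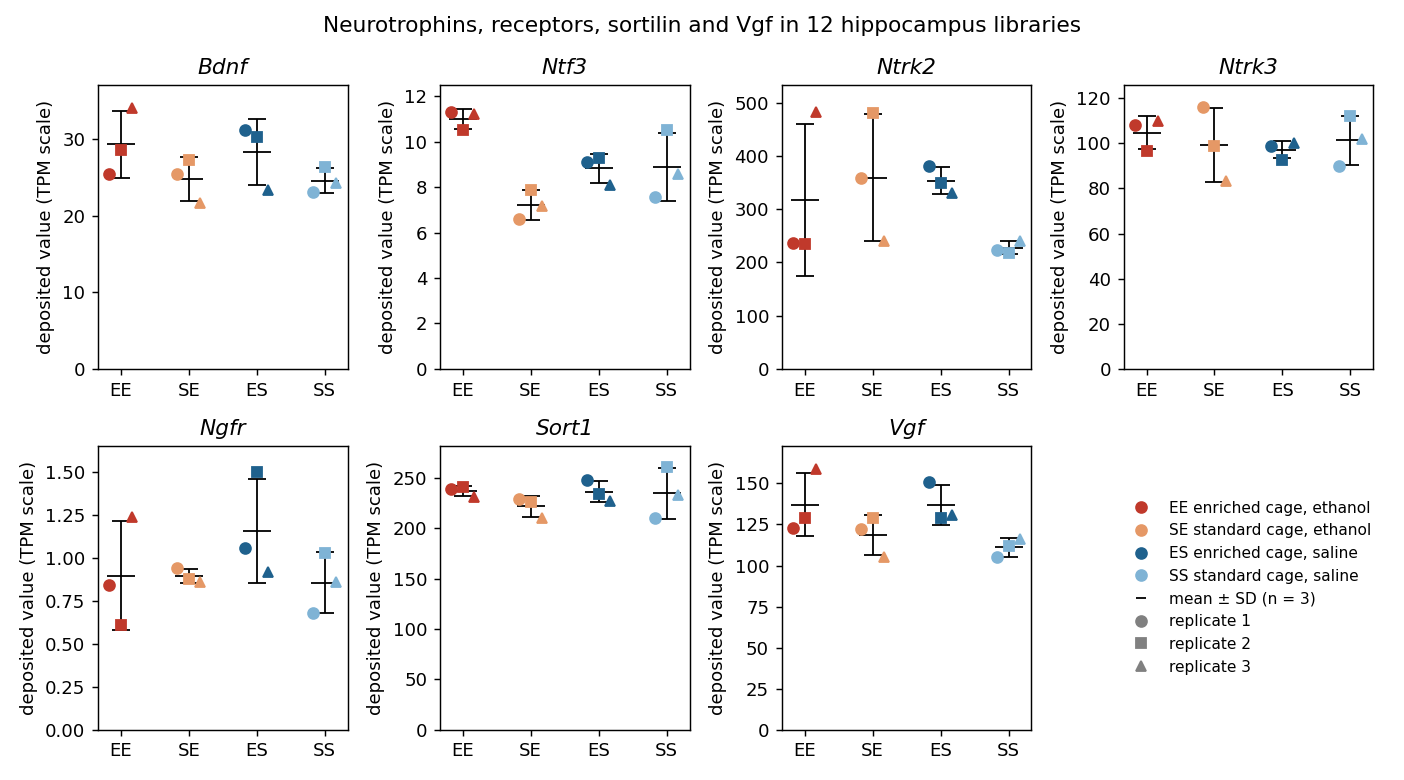
Deposited values on the TPM scale (vertical axes, from 0) of the 7 genes in each of the 12 libraries, with the mean and SD of each group of 3 as black bars; circles, squares and triangles are replicates 1, 2 and 3. Ntf3 lies between 10.5 and 11.3 in the enriched ethanol libraries and between 6.59 and 7.89 in the standard ethanol libraries, and Ntrk2 lies between 217 and 241 in the standard saline libraries and reaches 483 elsewhere.

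The 7 genes covered a wide range of levels. Averaged over the 12 libraries, Ntrk2 stood at 314, Sort1 at 233, Vgf at 126, Ntrk3 at 101, Bdnf at 26.7, Ntf3 at 8.97 and Ngfr at 0.952. Ntrk2 exceeded Sort1 in 9 of 12 libraries, and the ranges of these neighbours in the order overlapped. Vgf exceeded Ntrk3 in 12 of 12 libraries, with ratios from 1.0 to 1.53, although their ranges also overlapped. The other neighbours did not overlap: Sort1 was at least 1.46 times Vgf in every library, Ntrk3 at least 3.06 times Bdnf, Bdnf at least 2.25 times Ntf3, and Ntf3 at least 6.20 times Ngfr. Ntrk2 and Ntrk3 transcripts were thus more abundant than those of their ligands Bdnf and Ntf3 in every library, with a median Ntrk2 to Ntrk3 ratio of 2.43 in enriched ethanol, 3.07 in standard ethanol, 3.76 in enriched saline and 2.37 in standard saline mice. Ntf5, the other ligand of TrkB, averaged 0.233. It lay between 0.0799 and 0.294 in 11 libraries and at 0.951 in enriched saline replicate 2. That library had the highest sums of choroid plexus and of meningeal fibroblast markers. The part of such content in the Ntf5 values was not tested.

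Bdnf (ENSMUSG00000048482) lies on the plus strand at chr2:109674700-109727007 of GRCm38 and has 11 annotated protein-coding transcripts, which start at several promoters and share the exon that encodes the protein. The deposited value pools them. RefSeq promoter windows on GRCm38.p6 matched 4 of the 7 members, Bdnf with 7 windows, Ntf3 with 2, and Ngfr and Ntrk2 with 1 each. The 250 bases before each start were searched on both strands for the cAMP response element TGACGTCA, its 5-base core TGACG, the EGR site GCGTGGGCG, the AP-1 site TGAGTCA and the E-box CANNTG; the core also lies inside the full element. The core was found in 1 of the 11 member windows and in 17.8% of all 32851 windows. The full element, the EGR site and the AP-1 site were found in 0 of 11, beside 1.55%, 0.536% and 4.46% of all windows, and the E-box in 10 of 11, beside 66.2%. The 120 bases before the start are shown for 2 Bdnf promoters, since their transcripts are summed in the Bdnf value, and for the first Ntf3 window and the Ntrk2 window, the other genes the results turn on. Capitals mark the core, which reads CGTCA on the strand shown.
Bdnf, plus strand, chr2:109674580-109674699: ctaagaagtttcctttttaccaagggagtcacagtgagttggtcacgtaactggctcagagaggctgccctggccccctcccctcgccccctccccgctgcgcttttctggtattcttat
Bdnf, plus strand, chr2:109692316-109692435: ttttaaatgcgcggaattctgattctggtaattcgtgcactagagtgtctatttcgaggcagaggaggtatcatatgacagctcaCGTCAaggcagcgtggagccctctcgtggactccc
Ntf3, minus strand, chr6:126166745-126166864: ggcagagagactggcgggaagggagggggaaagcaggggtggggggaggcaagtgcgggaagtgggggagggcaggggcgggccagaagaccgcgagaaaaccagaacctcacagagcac
Ntrk2, plus strand, chr13:58806449-58806568: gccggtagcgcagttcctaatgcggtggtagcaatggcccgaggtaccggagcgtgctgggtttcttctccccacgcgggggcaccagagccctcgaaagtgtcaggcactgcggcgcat

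Bdnf had values of 25.4, 28.5 and 34.0 in enriched ethanol mice, 25.4, 27.2 and 21.6 in standard ethanol mice, 31.2, 30.3 and 23.4 in enriched saline mice, and 23.1, 26.3 and 24.2 in standard saline mice. The highest values came from enriched mice, but the groups overlapped in every comparison, and enriched saline replicate 3 was lower than 2 of the standard saline libraries. For enrichment averaged over treatment the log2 fold change was 0.22 (SE 0.10, unadjusted p = 0.0432, limma adjusted p = 0.617), and an exact permutation test of the 6 enriched against the 6 standard libraries within treatment gave p = 0.0550 (two-sided, smallest possible p 0.00500). With 1 library left out the unadjusted limma p lay above 0.05 in 8 of 12 cases, up to 0.113 without enriched ethanol replicate 3. The fold change was 0.24 (SE 0.13) in ethanol mice, or 0.13 without enriched ethanol replicate 3. It was 0.19 (SE 0.13) in saline mice, or 0.12 without enriched saline replicate 1 and 0.32 without enriched saline replicate 3. Ethanol gave 0.05 (SE 0.13) in enriched cages and 0.01 (SE 0.13) in standard cages, and the interaction was 0.04 (SE 0.19), all with limma adjusted p values from 0.943 to 0.999.

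By Pearson correlation over the 12 libraries, on the log2 scale and among 11630 genes with a mean of at least 5, the genes most like Bdnf were Lypla2 (r = 0.94, Spearman correlation 0.95), Gpr137 (r = 0.93, Spearman 0.94), Sorcs3 (r = 0.88, Spearman 0.85), Kcna4 (r = 0.88, Spearman 0.83) and Pcbd2 (r = 0.88, Spearman 0.76). Without the 2 libraries farthest from the Bdnf median, r ran from 0.73 for Pcbd2 to 0.93 for Lypla2. Lypla2 is a depalmitoylating thioesterase, Kcna4 a voltage-gated potassium channel, and Sorcs3 a neuronal receptor of the sortilin family. These values are a description, since the genes were picked as the highest of many, and points share groups, tissue and library preparation.

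Ntf3 (ENSMUSG00000049107), which encodes neurotrophin-3, lies on the minus strand at chr6:126101412-126166910; in the adult hippocampus its transcripts are known from dentate granule cells. Ntf3 had values of 11.3, 10.5 and 11.2 in enriched ethanol mice, 6.59, 7.89 and 7.15 in standard ethanol mice, 9.10, 9.30 and 8.11 in enriched saline mice, and 7.57, 10.5 and 8.59 in standard saline mice. The enriched ethanol libraries lay above every standard ethanol and every enriched saline library, while standard saline replicate 2 reached into their range. Enrichment in ethanol mice gave a log2 fold change of 0.58 (SE 0.13, unadjusted p = 0.000680, limma adjusted p = 0.595). Enrichment in saline mice gave 0.00 (SE 0.13, limma adjusted p = 0.998).

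The direction of the ethanol difference in Ntf3 was opposite in the 2 housings. It was 0.30 (SE 0.13, limma adjusted p = 0.625) in enriched cages, where the groups did not overlap, and -0.27 (SE 0.13, limma adjusted p = 0.680) in standard cages, where they did. In standard cages the value became -0.16 when standard saline replicate 2, which had the highest dentate marker sum, was left out. It became -0.38 when standard saline replicate 1 was left out. The interaction, the ethanol fold change in enriched minus that in standard cages, was 0.57 (SE 0.18, unadjusted p = 0.00765, limma adjusted p = 0.564). With 1 library left out it ran from 0.45, without standard saline replicate 2, to 0.68, without standard saline replicate 1. For enrichment averaged over treatment the log2 fold change was 0.29 (SE 0.09, limma adjusted p = 0.497; exact permutation p = 0.050, two-sided). Members whose groups did not overlap numbered 1 of 6 for ethanol in enriched cages (15.2% of all genes tested), Ntf3, and 2 of 6 for enrichment in ethanol mice (12%), Ntf3 and Sort1. A comparison of 3 against 3 cannot give an exact permutation p below 0.10, which was the value for each of these.

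Dentate granule cell markers lay on the same side of 0 as Ntf3 in some comparisons and not in others. The whole list of 12 was tested, with 0 called; for the interaction 6 of 12 were higher at an unadjusted limma p under 0.05 and 0 lower, and the median log2 value was 0.49, beside -0.01 for all genes and 0.29 for the list without standard saline replicate 2. In standard cages the median ethanol fold change of the list was -0.49, with 8 of 12 lower at an unadjusted p under 0.05, and without standard saline replicate 2 the median was -0.32. For enrichment in ethanol mice, the comparison with the widest Ntf3 difference, the list's median was 0.16 and 2 of 12 were higher at an unadjusted p under 0.05. For enrichment in saline mice, where Ntf3 stood at 0.00, the list's median was -0.30, with 0 of 12 above 0 and 6 lower at an unadjusted p under 0.05. For enrichment averaged over treatment, where Ntf3 stood at 0.29, it was -0.13, with 10 of 12 below 0. Its summed level ran from 365 to 406 in enriched ethanol, 322 to 389 in standard ethanol, 341 to 405 in enriched saline and 405 to 564 in standard saline mice. Of all genes tested, 7.41% had an unadjusted p under 0.05 for the interaction and 7.39% for ethanol in standard cages. The shares were 5.57% for enrichment in ethanol mice and 10.0% for enrichment in saline mice. In bulk tissue fewer cells of a type and less RNA per cell cannot be told apart, and the part of granule cell content in the Ntf3 values was not tested.

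The genes most like Ntf3 over the 12 libraries were Nsrp1 (r = 0.91, Spearman 0.89), B4galnt1 (r = 0.88, Spearman 0.92), Dnajc5 (r = 0.85, Spearman 0.83), Kcnj3 (r = 0.82, Spearman 0.87) and Nutf2-ps1 (r = 0.82, Spearman 0.83). B4galnt1 makes complex gangliosides, Dnajc5 encodes the synaptic vesicle chaperone CSPα, and Kcnj3 is the potassium channel GIRK1. Without the 2 libraries farthest from the Ntf3 median, r ran from 0.72 for Kcnj3 to 0.87 for Dnajc5, and for deviations from the group means it ran from 0.49 for Dnajc5 to 0.79 for B4galnt1.

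Ntrk2 (ENSMUSG00000055254), which encodes TrkB, lies on the plus strand at chr13:58806569-59133970 and has 10 annotated transcripts, 7 of them protein-coding, including forms without the kinase domain that astrocytes are known to make; the deposited value pools them. Ntrk2 had values of 236, 234 and 483 in enriched ethanol mice, 358, 480 and 240 in standard ethanol mice, 381, 349 and 331 in enriched saline mice, and 224, 217 and 241 in standard saline mice. Both ethanol groups held low and high libraries, the enriched saline libraries lay between 331 and 381, and all standard saline libraries were low. The group SD was 143 in enriched ethanol and 120 in standard ethanol mice, against 25.2 in enriched saline and 12.2 in standard saline mice.

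For enrichment in saline mice the Ntrk2 log2 fold change was 0.63 (SE 0.27, limma adjusted p = 0.473; exact permutation p = 0.10, the smallest possible). Ntrk2 and Vgf were the 2 of 6 members whose groups did not overlap in that comparison, beside 14.0% of all genes tested. Ethanol in standard cages gave 0.60 (SE 0.27, limma adjusted p = 0.662), or 0.37 without standard ethanol replicate 2 and 0.87 without standard ethanol replicate 3, and there 0 of 6 members did not overlap, beside 12.1% of all genes. Ethanol in enriched cages gave -0.24 (SE 0.27, limma adjusted p = 0.837), enrichment in ethanol mice -0.21 (SE 0.27, limma adjusted p = 0.976) and the interaction -0.84 (SE 0.38, unadjusted p = 0.0469, limma adjusted p = 0.667). Enriched ethanol replicate 3 decided much of this: without it the interaction was -1.19, the ethanol fold change in enriched cages -0.58 and the enrichment fold change in ethanol mice -0.55. Ethanol in enriched cages gave -0.06 without enriched ethanol replicate 2, and enrichment in ethanol mice gave 0.03 without standard ethanol replicate 2.

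The Ntrk2 values followed those of other genes along chromosome 13. Of the 17 tested genes that start within 1.5 Mb of the Ntrk2 start, 6 (35.3%, Ntrk2 included) had the same 6 highest libraries as Ntrk2, which were enriched ethanol replicate 3, standard ethanol replicates 1 and 2 and all 3 enriched saline libraries. Among all genes tested 41 of 14947 (0.274%) did, and of the 40 of these with a position, the 6 near Ntrk2 were the only ones on chromosome 13. They were 2210016F16Rik, Rmi1 (a subunit of a DNA-repair complex), Ntrk2, Agtpbp1 (a tubulin deglutamylase), Isca1 (an iron-sulfur cluster protein) and Tut7 (an RNA uridylyltransferase). From the first to the last of them the stretch ran over 1.44 Mb, at chr13:58379817-59823147 of GRCm38, and held 9 tested genes; Naa35 and Golm1 shared 5 of the 6 libraries, as did Hnrnpk.

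Set against the standard saline mean of each gene, the median ratio of these 6 genes was 1.02, 1.05 and 2.02 in the enriched ethanol libraries, 1.55, 2.06 and 1.02 in the standard ethanol libraries, 1.65, 1.46 and 1.46 in the enriched saline libraries, and 1.0, 0.99 and 0.98 in the standard saline libraries. In enriched ethanol replicate 3 the ratios of the 6 ran from 1.95 to 2.28, and in standard ethanol replicate 2 from 1.89 to 2.14. Since the 6 were picked for sharing their highest libraries, this closeness is in part set by the choice. Over all 9 tested genes of the stretch the ratios ran from 1.17 to 2.28 with a median of 1.95 in enriched ethanol replicate 3, and from 1.22 to 2.29 with a median of 2.04 in standard ethanol replicate 2. Ntrk2 itself reached 2.12 times its standard saline mean, Agtpbp1 2.08 and Rmi1 2.07, whereas Hnrnpk, which lies inside the stretch, reached 1.23. Outside the stretch, the other 8 tested genes of the window (7 on the side of Spock1 to Kif27, and Gas1) had ratios between 0.61 and 1.33. The plot of ratios along the chromosome shows the change at both ends of the stretch. These ends were set by the same choice of genes. Hnrnpk, next to the first gene of the stretch, stayed within the range of the genes outside.

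**Figure D2:**
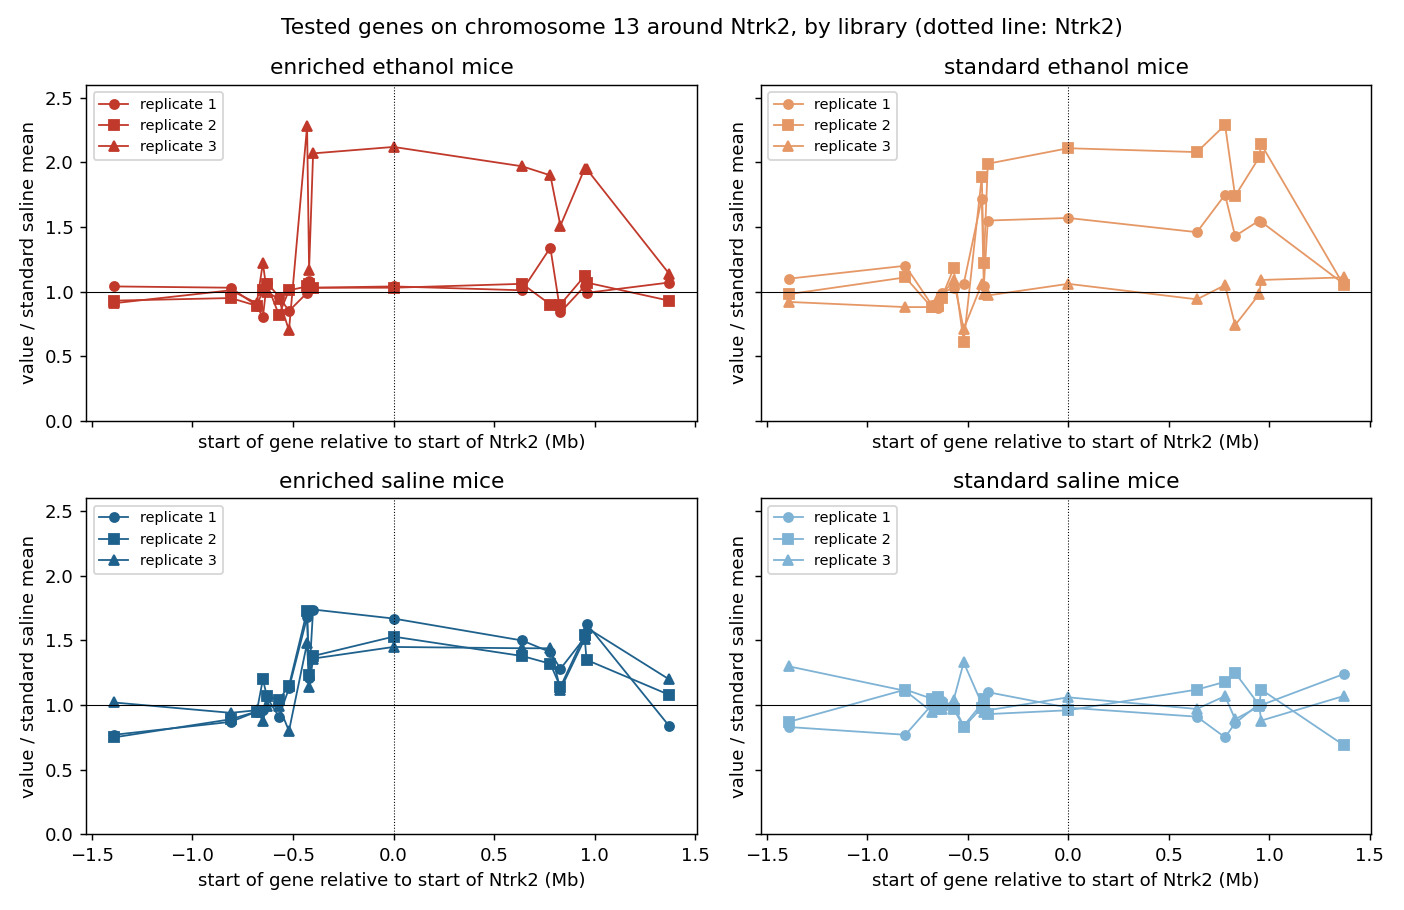
Ratio of each tested gene to its own standard saline mean (vertical axis) by distance of its start from the start of Ntrk2 in Mb (horizontal axis), 1 line per library and 1 panel per group; the dotted line marks Ntrk2. In 1 enriched ethanol library, 2 standard ethanol libraries and all 3 enriched saline libraries most genes from -0.43 to 0.96 Mb lie above 1, while genes outside stay between 0.61 and 1.33.

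Ntrk2 was then set relative to the nearest tested gene on each side, Rmi1 and Agtpbp1, an alternative chosen after seeing the data. Both are among the genes picked above for sharing the highest libraries of Ntrk2. Smaller fold changes on that scale were therefore in part set by the choice. The log2 difference from their mean was 1.76 ± 0.0530 in enriched ethanol, 1.83 ± 0.0387 in standard ethanol, 1.83 ± 0.0534 in enriched saline and 1.74 ± 0.117 in standard saline mice (SD, n = 3 each). On that scale the fold changes of Ntrk2 lay between -0.06 and 0.09 in the 4 comparisons of 2 groups, with an interaction of -0.15 (SE 0.09, limma adjusted p = 0.731). As deposited, the Ntrk2 fold changes in the same 4 comparisons lay between -0.24 and 0.63. Astrocyte markers, all 10 tested, summed to between 2353 and 2540 in enriched ethanol, 2446 and 2655 in standard ethanol, 2091 and 2195 in enriched saline, and 2243 and 2847 in standard saline mice. These sums were lowest in the enriched saline libraries. Meningeal fibroblast markers, all 8 tested and 0 called, followed the Ntrk2 fold changes by group. Their median was 0.71 for ethanol in standard cages and 0.68 for enrichment in saline mice, with 8 of 8 above 0 in each, and -0.75 for the interaction, with 0 of 8 above 0. They summed to 128, 107 and 130 in enriched ethanol, 151, 128 and 175 in standard ethanol, 124, 188 and 110 in enriched saline, and 108, 71.0 and 86.1 in standard saline mice. By library the order was not the same throughout. Standard ethanol replicate 3 had the lowest Ntrk2 value of its group and the highest sum of these markers. The part of either list in the Ntrk2 values was not tested. RNA alone was measured; genotype and copy number of the stretch were not measured, and their part in these values was not tested.

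Ntrk3 (ENSMUSG00000059146), the TrkC receptor of neurotrophin-3, lies on the minus strand at chr7:78175959-78738012 and has 20 annotated transcripts, 6 of them protein-coding. Ntrk3 had values of 108, 96.4 and 110 in enriched ethanol mice, 116, 98.9 and 83.1 in standard ethanol mice, 99.0, 92.8 and 100 in enriched saline mice, and 90.1, 112 and 102 in standard saline mice. The groups overlapped in every comparison, and the standard ethanol libraries held both the highest and the lowest value. Fold changes lay between -0.05 and 0.14 on the log2 scale, with limma adjusted p values from 0.832 to 0.983. The receptor of neurotrophin-3 thus showed no difference beyond the spread of its replicates in the comparison where Ntf3 differed most (enrichment in ethanol mice, 0.09, SE 0.11, limma adjusted p = 0.976).

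Ngfr (ENSMUSG00000000120), the p75 receptor, lies at chr11:95568818-95587735 on the minus strand and is known in the adult forebrain mainly from basal forebrain cholinergic neurons, whose axons reach the hippocampus while their cell bodies do not lie in it. Ngfr had values of 0.841, 0.612 and 1.24 in enriched ethanol mice, 0.942, 0.880 and 0.863 in standard ethanol mice, 1.06, 1.5 and 0.917 in enriched saline mice, and 0.678, 1.03 and 0.862 in standard saline mice. Its mean missed the minimum of 1, and in a fit without the minimum its log2 fold changes lay between -0.30 and 0.28 with limma adjusted p values from 0.740 to 1.0. The highest value was that of enriched saline replicate 2, in which choroid plexus markers summed to 7842, of which Ttr made up 7503. Meningeal fibroblast markers also had their highest sum there, 188. The part of choroid plexus or meningeal content in the Ngfr values was not tested. Septal cholinergic markers were near the bottom of the scale: 0 of 7 passed the minimum, and their sum, Ngfr included, ran from 1.38 to 3.75.

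Sort1 (ENSMUSG00000068747), which encodes sortilin, the partner of p75 in binding precursor neurotrophins and a sorting receptor for BDNF, lies on the plus strand at chr3:108284082-108361511. Sort1 had values of 239, 241 and 231 in enriched ethanol mice, 229, 226 and 210 in standard ethanol mice, 248, 234 and 227 in enriched saline mice, and 210, 261 and 233 in standard saline mice. The enriched ethanol libraries lay just above the standard ethanol libraries, and the groups overlapped in the other comparisons. Enrichment in ethanol mice gave 0.10 on the log2 scale (SE 0.07, limma adjusted p = 0.960; exact permutation p = 0.10). Sort1 was 187 to 394 times as high as Ngfr in enriched ethanol, 243 to 257 times in standard ethanol, 156 to 248 times in enriched saline and 253 to 310 times in standard saline mice.

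Vgf (ENSMUSG00000037428), a BDNF-inducible gene whose product is cut into secreted peptides and stored in dense-core vesicles, lies on the plus strand at chr5:137026392-137033351. Vgf had values of 123, 129 and 159 in enriched ethanol mice, 122, 129 and 105 in standard ethanol mice, 151, 129 and 131 in enriched saline mice, and 105, 112 and 116 in standard saline mice. All enriched saline libraries exceeded all standard saline libraries, while the ethanol groups overlapped. Enrichment averaged over treatment gave a log2 fold change of 0.25 (SE 0.08, unadjusted p = 0.00639, limma adjusted p = 0.483), and the exact permutation p was 0.0150, two-sided and not adjusted. It was the lowest such p among the 7 genes in any comparison; 0 of 6 members had enriched and standard libraries that did not overlap, beside 0.375% of all genes, and for ethanol averaged over housing 0 of 6, beside 0.415%.

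Within treatments the Vgf fold change for enrichment was 0.30 (SE 0.11, limma adjusted p = 0.416) in saline mice and 0.20 (SE 0.11, limma adjusted p = 0.899) in ethanol mice, and the interaction was -0.10 (SE 0.15, limma adjusted p = 0.902). In ethanol mice it was 0.09 without enriched ethanol replicate 3, the library with the highest Vgf and Bdnf values. Ethanol averaged over housing gave 0.04 (SE 0.08, limma adjusted p = 0.924).

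Several regional marker lists had medians above 0 for enrichment, as Vgf and Bdnf did, with 0 markers called. Others did not. Averaged over treatment the median was -0.04 for the CA2 and CA3 list, with 6 of 8 tested below 0. It was -0.04 for the thalamus and habenula list, with 3 of 6 below 0, and -0.13 for the dentate granule cell list. All 7 CA1 pyramidal markers were tested, and the lowest limma adjusted p was 0.415 for enrichment averaged over treatment and 0.222 in saline mice. For enrichment averaged over treatment 5 of 7 CA1 markers had fold changes above 0 and 2 below, 4 were higher at an unadjusted limma p under 0.05 and 0 lower, and the median log2 fold change was 0.14. The median was 0.27 in saline mice, with 5 of 7 higher and 1 lower at an unadjusted p under 0.05, and 0.09 in ethanol mice. Of all genes tested, 7.96% had an unadjusted p under 0.05 for enrichment averaged over treatment and 10.0% for enrichment in saline mice. The list summed to between 438 and 473 in enriched ethanol, 430 and 458 in standard ethanol, 455 and 507 in enriched saline, and 377 and 434 in standard saline mice. Striatum markers, all 8 tested, had a median of 0.23 for enrichment averaged over treatment, with 7 of 8 above 0, and of 0.25 in saline mice. They summed to between 122 and 130 in enriched ethanol, 117 and 121 in standard ethanol, 141 and 170 in enriched saline, and 120 and 125 in standard saline mice. Neocortex and subiculum markers, all 8 tested, had a median of 0.17 averaged over treatment, with 6 of 8 above 0, and of 0.31 in saline mice (lowest limma adjusted p = 0.111). These summed to between 195 and 204 in enriched ethanol, 174 and 218 in standard ethanol, 192 and 257 in enriched saline, and 131 and 229 in standard saline mice. In standard saline replicates 1, 2 and 3 the sums were 229, 131 and 194, and the median without replicate 2 was not computed. In ethanol mice the median was 0.05 for the striatum list and 0.02 for the neocortex and subiculum list. The genes most like Vgf over the 12 libraries were Sorcs3 (r = 0.93, Spearman 0.85), the CA1 marker Wfs1 (r = 0.91, Spearman 0.85), the neuronal chemokine Cx3cl1 (r = 0.88, Spearman 0.86), 0610010K14Rik (r = 0.87, Spearman 0.85) and Fbll1 (r = 0.86, Spearman 0.85). Without the 2 libraries farthest from the Vgf median, r ran from 0.66 for Fbll1 to 0.80 for Sorcs3 and Wfs1. The part of CA1, striatal, neocortical or subicular content in the Vgf and Bdnf values was not tested.

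**Figure D3:**
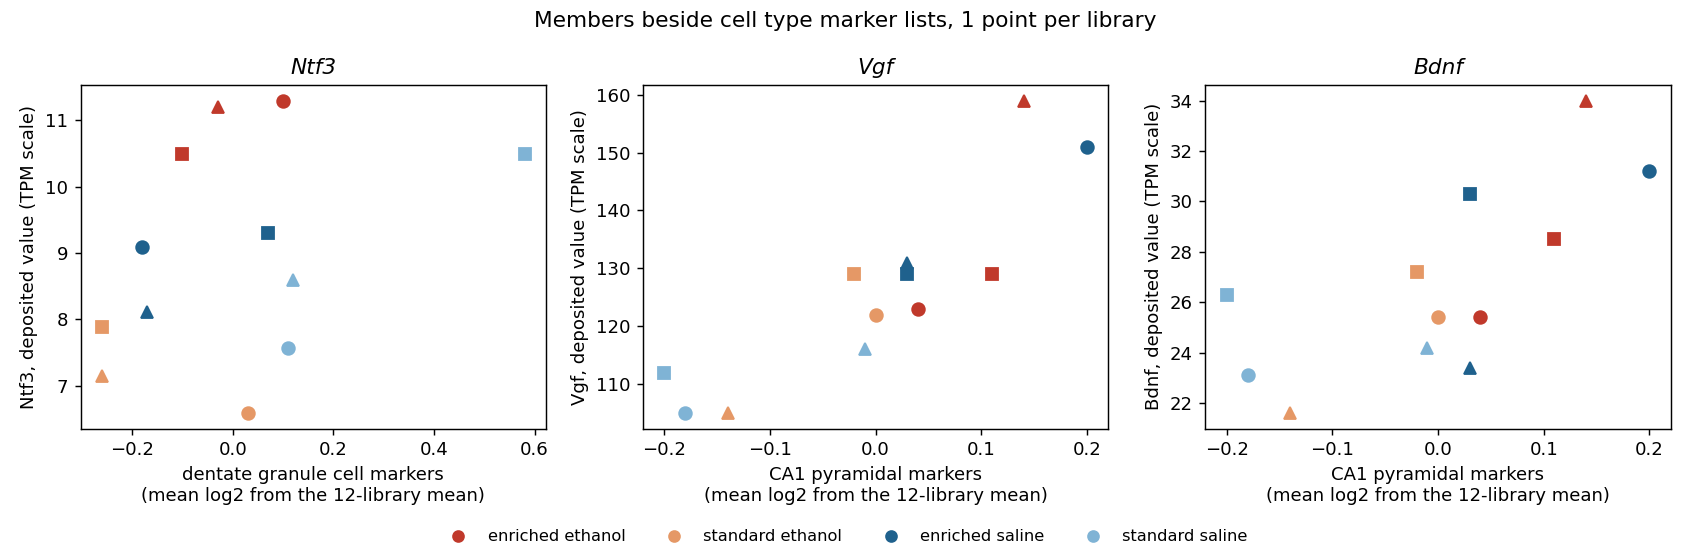
Deposited value of Ntf3, Vgf and Bdnf (vertical axes, TPM scale, not starting at 0) against the mean log2 level of a cell type marker list relative to its 12-library mean (horizontal axes), 1 point per library, coloured by group; circles, squares and triangles are replicates 1, 2 and 3. The enriched ethanol libraries lie high in Ntf3 at dentate marker levels of -0.10 to 0.10, and standard saline replicate 2 stands apart at 0.58. The highest Vgf and the highest Bdnf value both lie at a CA1 marker level of 0.14, and the next highest of each at 0.20.

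**Figure D4:**
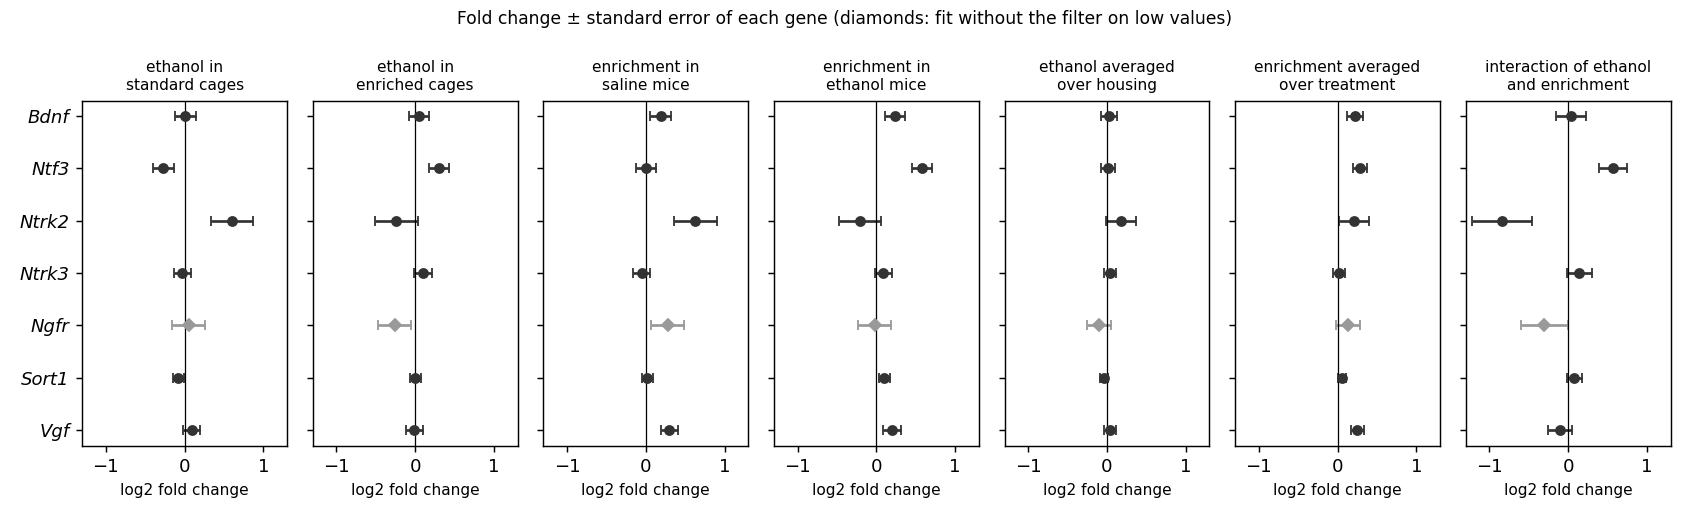
Log2 fold changes with standard errors of the 7 genes (rows) in the 7 comparisons (panels); values above 0 are higher with ethanol or with enrichment, and Ngfr, drawn as diamonds, comes from the fit without the expression minimum. Farthest from 0 lie Ntrk2 at -0.84 for the interaction, 0.63 for enrichment in saline mice and 0.60 for ethanol in standard cages, then Ntf3 at 0.58 for enrichment in ethanol mice and 0.57 for the interaction, and no value passed the adjusted threshold.

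Sorcs3, the sortilin family gene most like Vgf and among those most like Bdnf, had values of 24.6, 24.7 and 29.4 in enriched ethanol mice, 23.2, 24.7 and 21.5 in standard ethanol mice, 28.7, 24.9 and 22.0 in enriched saline mice, and 19.6, 21.2 and 21.3 in standard saline mice. Its log2 fold change for enrichment averaged over treatment was 0.22 (SE 0.08, limma adjusted p = 0.555). In the list of 9 neurotrophin receptors and sortilin family genes, 7 were tested and 0 called; their median was 0.03 for enrichment and 0.05 for ethanol, each averaged over the other factor. Of the 4 ligand genes 3 were tested and 0 called, with medians of 0.22 for enrichment and 0.03 for ethanol.

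Among the proteases that cut precursor neurotrophins 9 of 12 genes were tested and 0 called, with medians of 0.01 for ethanol and 0.06 for enrichment. Plat, tissue plasminogen activator, which starts the plasmin cascade that cuts proBDNF, came closest to a call. Plat had values of 38.3, 37.1 and 37.1 in enriched ethanol mice, 38.4, 37.4 and 39.9 in standard ethanol mice, 34.1, 33.5 and 31.7 in enriched saline mice, and 29.7, 29.2 and 29.7 in standard saline mice. All 6 ethanol libraries lay above all 6 saline libraries, and Plat averaged 38.0 ± 1.09 in ethanol and 31.3 ± 2.11 in saline mice (SD, n = 6 each; limma log2 fold change 0.28, SE 0.04, unadjusted p = 2.71e-05, adjusted p = 0.101). It was 0.38 (SE 0.06, limma adjusted p = 0.195) in standard cages and 0.18 (SE 0.06, limma adjusted p = 0.576) in enriched cages. Glial markers lay on the same side: for ethanol averaged over housing all 10 myelin and oligodendrocyte markers were above 0, 8 of them at an unadjusted limma p under 0.05, with a median of 0.42 and 0 called. Of all genes tested, 8.02% had an unadjusted p under 0.05 in that comparison. All 10 astrocyte markers were also above 0, with a median of 0.10 and 0 called. The myelin list summed to between 3838 and 5705 in enriched ethanol, 5294 and 5614 in standard ethanol, 3207 and 3944 in enriched saline, and 3230 and 5517 in standard saline mice. For enrichment averaged over treatment its median was -0.27, with 10 of 10 below 0. The part of glial content in the values of Plat and of the other genes compared here was not tested. Pcsk7, a proprotein convertase, averaged 9.68 ± 1.20 in enriched and 11.8 ± 2.30 in standard mice (SD, n = 6 each; limma log2 fold change -0.26, SE 0.13, adjusted p = 0.655).

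All 44 genes of Trk adaptors and downstream kinases were tested and 0 were called, with medians of 0.00 for ethanol and -0.01 for enrichment. Gab1, a docking protein that links receptor kinases to PI3 kinase, averaged 14.1 ± 1.91 in enriched and 18.1 ± 1.93 in standard mice (SD, n = 6 each; limma log2 fold change -0.36, SE 0.08, adjusted p = 0.340), and 17.2 ± 1.93 in ethanol and 15.0 ± 3.26 in saline mice (a log2 difference of 0.21, SE 0.08, limma adjusted p = 0.555). Kidins220, a scaffold that binds Trk receptors, averaged 235 ± 12.2 in enriched and 214 ± 10.2 in standard mice (SD, n = 6 each; limma log2 fold change 0.13, SE 0.04, adjusted p = 0.545).

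Of the 10 p75 partners all were tested and 0 called. Arhgdia averaged 133 ± 6.56 in ethanol and 122 ± 4.62 in saline mice (SD, n = 6 each; limma log2 fold change 0.13, SE 0.04, adjusted p = 0.50), and Ripk2, a kinase adaptor recruited by p75, averaged 6.50 ± 0.430 in enriched and 5.47 ± 0.609 in standard mice (limma log2 fold change 0.24, SE 0.09, adjusted p = 0.601). All 16 Bdnf transcription regulators were tested and 0 called, with medians of 0.00 for ethanol and 0.03 for enrichment. Mef2c, an activity-regulated transcription factor, averaged 190 ± 32.2 in enriched and 153 ± 50.0 in standard mice (SD, n = 6 each; limma log2 fold change 0.36, SE 0.19, adjusted p = 0.661).

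All 20 BDNF and activity response genes were tested and 0 called. For ethanol averaged over housing 18 of 20 had fold changes above 0, with a median of 0.09 and 0 at an unadjusted limma p under 0.05, and for enrichment averaged over treatment 16 of 20, with a median of 0.07, 2 higher and 1 lower at an unadjusted p under 0.05. Of all genes tested, 8.02% had an unadjusted p under 0.05 for ethanol averaged over housing and 7.96% for enrichment averaged over treatment. The list summed to 1031 in standard saline replicate 2 and to between 1121 and 1479 in the other libraries. Its counts and medians without that library were not computed. The immediate-early gene Egr3 averaged 35.5 ± 4.20 in enriched and 40.3 ± 4.68 in standard mice (SD, n = 6 each; limma log2 fold change -0.18, SE 0.08, adjusted p = 0.617), on the other side of 0 from Vgf. Among the 8 granins and other dense-core vesicle genes, all tested, 0 were called, 3 were higher at an unadjusted p under 0.05 with enrichment averaged over treatment, and the median was 0.07. Chgb, the granin secretogranin I, averaged 542 ± 34.2 in enriched and 447 ± 52.4 in standard mice (SD, n = 6 each; limma log2 fold change 0.29, SE 0.07, unadjusted p = 0.00217, adjusted p = 0.415). Of 18 other neurotrophic factors and receptors 15 were tested and 0 called; Ptprz1, the receptor of pleiotrophin, averaged 99.4 ± 11.5 in enriched and 114 ± 12.4 in standard mice (limma log2 fold change -0.20, SE 0.07, adjusted p = 0.555).

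**Figure D5:**
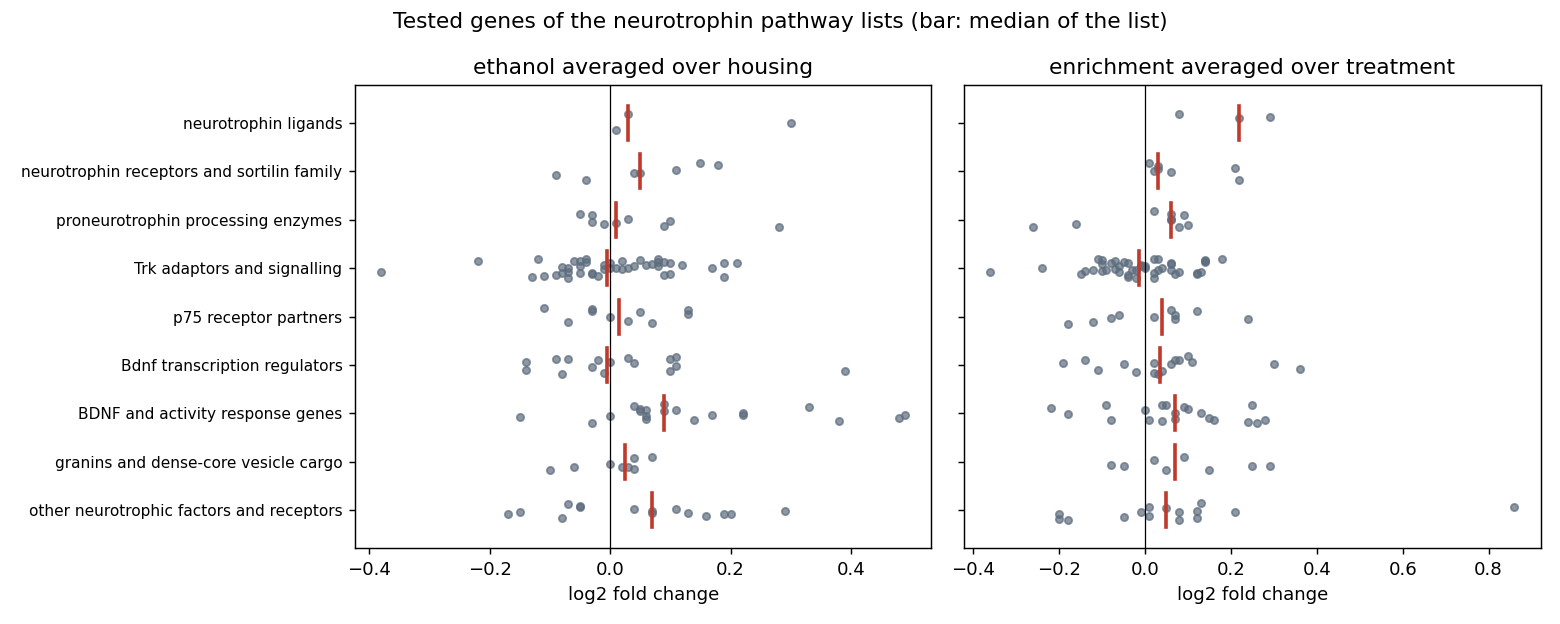
Log2 fold changes (horizontal axes) of the tested genes of the 9 neurotrophin pathway lists (rows), for ethanol averaged over housing on the left and enrichment averaged over treatment on the right; each point is 1 gene and each red bar the median of a list. The medians lie between 0.00 and 0.09 for ethanol and between -0.01 and 0.22 for enrichment, and no gene passed the adjusted threshold.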

How the data were processed

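RNA of 12 mouse hippocampi was sequenced. Per the labels' protocols, tissue was snap-frozen, RNA was isolated by column, ribosomal RNA was removed and stranded total RNA libraries were made. CASAVA, kallisto, sleuth and mm10 are listed, without versions, in the submitters' processing notes. The authors deposited 1 value per gene and library, a signal they name TPM. Its column sums run from 973187 to 1024536, so it was treated as a normalized signal proportional to TPM and not as plain TPM, which had been assumed when the tests were planned; the same test suits both. No read counts can be had from it, so the depth is unknown and neither counting intervals nor detection limits are printed, and an exact 0 can be a failed estimate. kallisto splits reads by estimate, so values of near-identical copies such as Nutf2-ps1 are uncertain.

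Here, values were analysed as log2(value + 0.5) for 14947 of 36119 genes with a mean of at least 1. limma 3.58.1 in R 4.3.3 fitted 4 group means to all 12 libraries with a mean-variance trend (8 residual degrees of freedom, 3.82 from the prior) and tested 7 two-sided contrasts; p values were adjusted by Benjamini-Hochberg over the 14947 genes, with calls at 0.05; the procedure was tested on simulated data. The contrasts share libraries. The members, lists and rules were chosen with earlier results of these data known. Named besides the 7 members were, for each pathway list, genes called or, with none called, those with the smallest p in each direction over the averaged comparisons (the more marked of these are printed, and some list genes are not reported here), and the 5 genes most correlated with Bdnf, Ntf3 and Vgf. Cell type marker lists (15) were read as summed levels and medians. Symbols (35827 identifiers) and positions come from GENCODE M21 on GRCm38, the assembly mm10 names, and promoter bases from RefSeq on GRCm38.p6. Alternatives were other pseudocounts, filters, scalings, no trend, a replicate block, 2-group fits, exact permutation tests and leaving out each library; Ntrk2 relative to its neighbours, Ngfr without the filter and marker medians without 1 library were added after seeing the data.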

Additional observations from a re-analysis of the deposited data

Results flagged for a closer look

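The effect of ethanol differed between enriched and standard cages at an unadjusted p under 0.05 for 2 genes, by the interaction term itself. For Ntf3 the difference of the log2 fold changes was 0.57 (SE 0.18, limma unadjusted p = 0.00765, adjusted p = 0.564), from 0.30 in enriched and -0.27 in standard cages. For Ntrk2 it was -0.84 (SE 0.38, limma unadjusted p = 0.0469, adjusted p = 0.667), from -0.24 in enriched and 0.60 in standard cages. Neither passed the adjustment over all genes, and 7.41% of all genes tested had an unadjusted interaction p under 0.05. Relative to Rmi1 and Agtpbp1 the Ntrk2 interaction was -0.15 (SE 0.09, limma adjusted p = 0.731). Both genes share the highest libraries of Ntrk2, so a smaller value there was in part set by the choice.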

How the results depend on the processing

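Under every alternative run with limma 0 of the members passed an adjusted p of 0.05; of 727 member fold changes under alternatives the lowest adjusted p was 0.0693 (Ntrk2, enrichment in saline mice, 2-group fit). The exact permutation test, not adjusted, gave 1 member under 0.05 for enrichment averaged over treatment (Vgf) and 0 for ethanol averaged over housing. For the comparisons of 3 against 3 libraries its smallest possible p was 0.10. No member could fall under 0.05 there, so these comparisons are no check. The permutation test was not run for the interaction. Rounded to 2 decimals, 29 fold changes changed sign, all with 1 library left out, where values ran as follows. In standard cages the ethanol fold change ran from -0.06 to 0.10 for Bdnf and from -0.15 to 0.09 for Ntrk3, and in enriched cages from -0.08 to 0.15 for Bdnf and from -0.12 to 0.07 for Vgf. For enrichment it ran in saline mice from -0.06 to 0.09 for Sort1 and from -0.13 to 0.03 for Ntrk3, and in ethanol mice from -0.55 to 0.03 for Ntrk2 and from -0.04 to 0.21 for Ntrk3. For ethanol averaged over housing it ran from -0.04 to 0.08 for Bdnf, -0.01 to 0.09 for Vgf, -0.02 to 0.10 for Ntrk3 and -0.04 to 0.07 for Ntf3. For enrichment averaged over treatment it ran from -0.04 to 0.08 for Ntrk3, and the interaction of Bdnf from -0.09 to 0.14. The cause of these changes was not tested.

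Counts over all genes, 0 to 4 per comparison as reported, ran from 0 to 8 under the other settings and up to 21 with 1 library left out (enrichment in ethanol mice, without enriched ethanol replicate 3). Same-numbered libraries did not deviate together over all genes tested (correlations of deviations from -0.151 to 0.0576, 0 of 18 pairs over 0.1). Whether same-numbered mice shared a litter or a batch cannot be told from this, since an effect on few genes would not show. The replicate block gave 0 members called and 2, 0, 3, 1, 1, 2 and 2 genes in all in the 7 comparisons. Each group held 3 mice of unknown litter, cage and sex. Given this, no read depth and gene-level values that pool transcripts, small differences and isoform changes could not be resolved.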
